A study of Rattus norvegicus with 200 samples.

Results

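The comparison described here is a high-fat diet (HFD) against chow in male Wistar rats that were fed only in the light phase, sampled at the 3 times when food was present. Its members are the 32 libraries of 200 in the series whose treatment label is HFD or chow light-feeding and whose Zeitgeber time (ZT, hours after lights on) is 2, 6 or 10. Wistar is an outbred laboratory stock, all rats carried the wild-type genotype, and the labels name the brain material as microglia, which are the macrophages that live in the brain. Chow light-feeding gave 5, 5 and 6 libraries at ZT2, ZT6 and ZT10, and HFD light-feeding gave 5, 6 and 5, so each diet had 16. Age, the make-up and length of the diet, and the method of cell isolation: none of the sources used here gives them. The labels do not say whether each library came from a separate rat, so the p-values below measure the spread between libraries. Of 20361 genes in the count table, the 14230 with a mean of at least 1 CPM (counts scaled to the library total) over the 32 libraries were tested.

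Microglia clear debris, prune synapses and present antigen, and their lysosomes take up myelin lipids and handle their cholesterol. Cells make cholesterol and fatty acids under the SREBP transcription factors, which the sterol-sensing protein Insig1 holds in the endoplasmic reticulum, and export cholesterol through ABC transporters under the LXR receptors. Nocturnal rats eat mostly in the dark phase, so feeding in the light phase sets food intake against the usual rest phase. The comparison asks what the fat-rich diet changed under that schedule.

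Chow libraries held 4.818 to 9.261 M counts (M, counts in units of 1e+06) and HFD libraries 4.819 to 11.37 M. The first principal component of log2 CPM held 20.6% of the variance, and along it every chow library lay between -0.33 and -0.06 and every HFD library between 0.042 and 0.26. The title numbers form a separate series for each diet, so diet cannot be told apart from any handling that followed the titles, and no value within a batch could be had. Chow libraries at ZT10 carry the consecutive title numbers 91 to 96. Checked against defining markers, the libraries are a mixture: per length of transcript, the median marker of oligodendrocytes stood at 177 FPKM (fragments scaled by transcript length and by library total) on chow and that of neurons at 53.4, against 22.9 for homeostatic microglia, 17.8 for astrocytes and 2.86 for endothelial cells. In such bulk samples fewer cells of a type and less RNA per cell cannot be told apart. Chow replicates 9 and 10 at ZT2 ranked first and second in the summed values of 10 of 40 lists, with summed erythrocyte genes at 6715 and 3184 CPM against a median of 228 over the 32 libraries, and summed homeostatic microglia genes at 4380 and 4581 CPM against 2723. HFD replicate 18 at ZT6 followed with 2134 CPM of erythrocyte genes.

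The diet was accompanied by small differences in a large share of genes, with the larger ones mostly falls. By edgeR's quasi-likelihood test with a Benjamini-Hochberg adjusted p under 0.05, 7515 of 14230 genes (52.8%) differed. On HFD 3789 (26.6%) were higher and 3726 (26.2%) lower. Counts of called members in each list below are to be read against these shares. The median log2 fold change (log2FC) was 0.26 among the genes called higher and -0.30 among those called lower. Only 755 (5.31%) differed by 1.5-fold or more, 153 of them higher and 602 lower. Falls of 2-fold or more were called in 156 genes and rises of that size in 11. With RLE in place of TMM scaling 3712 were higher and 3804 lower. On the deposited FPKM values, tested with limma under another scaling, filter and model, 2747 genes passed as higher and 4747 as lower; which of these choices moved the balance was not tested. All 16 HFD libraries lay above all 16 chow libraries in 87 genes (0.611%) and below them in 44 (0.309%).

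**Figure D1:**
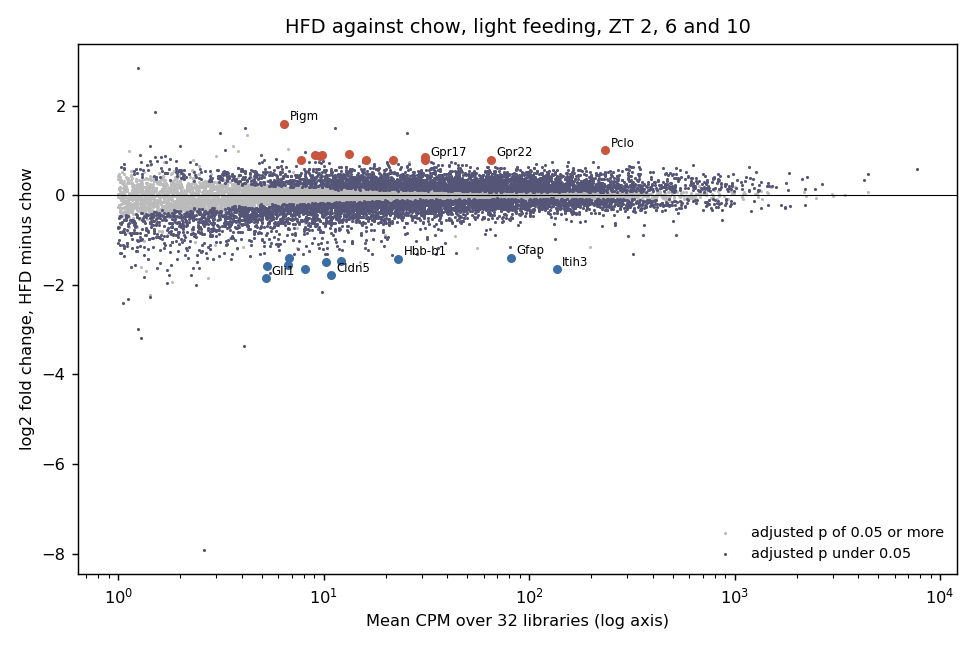
Log2 fold change of HFD minus chow (vertical axis) against mean CPM over the 32 libraries (horizontal log axis), 1 point per gene, with Myh9l1 left out because it had no counts in any HFD library. The lowest point is LOC103694902. Coloured points are the other 23 genes named by rule, of which 9 are labelled; the falls reach further from 0 than the rises.

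Among genes with a mean of at least 5 CPM and the same direction at all 3 times, the 12 largest falls comprised Gli1, Itih3, Etnppl, Slc7a10, Gfap and Nwd1, Cldn5, Tagln and Myl9, Aox1, Hbb-b1 and Myh9l1. Itih3, Etnppl, Slc7a10 and Gfap stand in the astrocyte list described below, Cldn5 in the endothelial and Tagln in the mural cell list. Itih3, an inter-alpha-trypsin inhibitor heavy chain of the extracellular matrix, ranged on chow from 101 CPM over a median of 212 to 373, and on HFD from 37.5 over 62.2 to 117. Only the highest HFD library overlapped the chow range, and the fall was -1.66 (SE 0.143, adjusted p = 1.1e-10 by edgeR). Etnppl, an astrocyte enzyme that breaks down phosphoethanolamine, ranged from 5.59 over 10.1 to 17.6 CPM on chow and from 1.93 over 3.53 to 4.68 on HFD, with no overlap (log2FC -1.56, SE 0.155). Nwd1 likewise had every HFD library below every chow library (medians of 3.33 against 8.34 CPM, log2FC -1.39).

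Gli1, the transcription factor that reads out Hedgehog signalling and in brain marks a set of astrocytes, had medians of 7.85 CPM on chow and 2.2 on HFD (log2FC -1.85, SE 0.19), with 14 of 16 HFD libraries below the lowest chow library. Cldn5, the tight junction claudin of the blood-brain barrier, fell from 8.52, 13.2 and 30.9 CPM (lowest, median, highest) to 2.22, 4.68 and 8.55 (log2FC -1.79, SE 0.193), and 15 of 16 HFD libraries lay below the chow range. Myh9l1, a myosin-like gene, had no counts in any HFD library and counts in 14 of 16 chow libraries. On chow it ran from 0 to 89.3 CPM, and whether its reads were divided with close copies was not tested. Against a floor of 3 counts over the 16 HFD libraries together, its chow mean of 29.5 CPM put it at least 1206-fold lower on HFD. Hbb-b1, a beta globin, is the exception among the 12: its fall of -1.42 was -4.49 at ZT2 and -0.09 and -0.37 at ZT6 and ZT10.

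The 12 largest rises were smaller, with log2FC from 0.78 to 1.59. Pigm, a mannosyltransferase that builds the glycolipid anchor of surface proteins, ranged from 1.05 over 3.06 to 8.68 CPM on chow and from 6.61 over 9.02 to 12.9 on HFD (log2FC 1.59, SE 0.189, adjusted p = 2.9e-08 by edgeR). The ranges overlapped, and 9 of 16 HFD libraries lay above the highest chow library. Pclo, a scaffold of the presynaptic active zone, rose from a median of 154 to 285 CPM (log2FC 1.00, SE 0.116). Gpr17, a receptor of committed oligodendrocyte precursors, ran from 15.8 to 29.8 CPM on chow and from 30.3 to 51.8 on HFD, without overlap (log2FC 0.80, SE 0.0679). Lmbrd2 also separated the diets fully (medians of 16.8 and 27 CPM, log2FC 0.78). The others were Yif1b, Acvr1c, Prrg1, Fut9, RT1-Ba, Gpr22, Kbtbd7 and Ptchd1, with log2FC of 0.93, 0.91, 0.89, 0.88, 0.86, 0.80, 0.79 and 0.78.

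**Figure D2:**
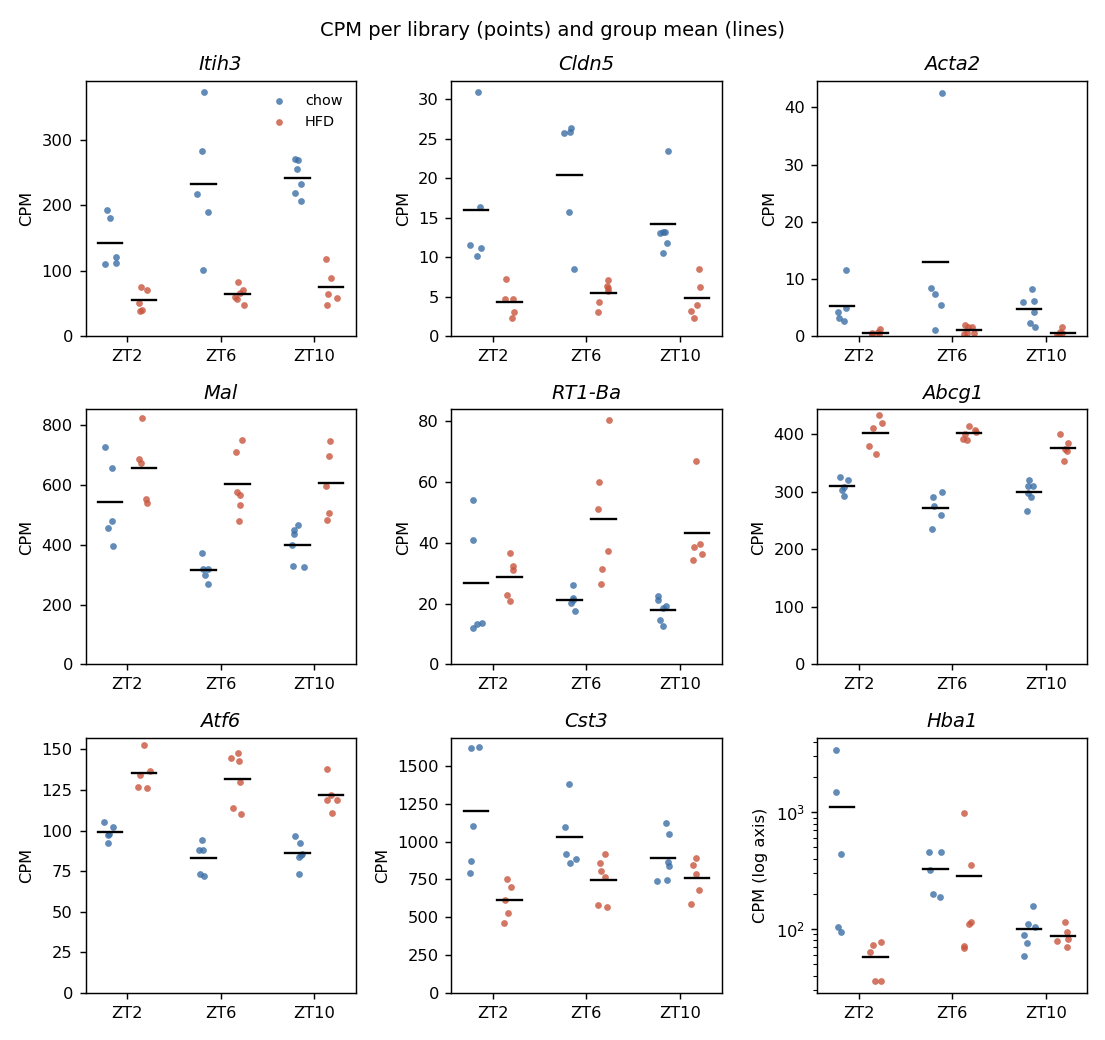
CPM of 9 genes in each library at ZT2, ZT6 and ZT10 (points, blue for chow and red for HFD) with the group mean (line); Hba1 has a log axis. Atf6 and Abcg1 sit higher and Itih3 and Cldn5 lower on HFD at each time, while the haemoglobin gene Hba1 differs by a log2FC of -4.30 at ZT2 and -0.20 and -0.19 at the later times.

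Markers of cell types other than microglia differed by type. All 16 astrocyte markers fell (median log2FC -1.08, against -0.0085 over all genes tested). Summed over the list they ran from 936 over 1419 to 2628 CPM on chow and from 437 over 730 to 1078 on HFD. Agt, angiotensinogen, fell from a median of 63.4 to 26.4 CPM without overlap (log2FC -1.28, SE 0.115), and Gfap, the intermediate filament of astrocytes, from 112 to 40.4 CPM (log2FC -1.39, SE 0.148). The water channel Aqp4 fell by 0.77 and the glutamate transporter Slc1a2 by 0.98 on the log2 scale. Calls in the astrocyte list were 13, 14 and 15 falls when ZT2, ZT6 and ZT10 were tested alone.

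Most vascular and meningeal markers fell too. All 8 mural cell markers fell (median -1.11), among them Acta2, smooth muscle actin, which ran from 0.987 over 5.18 to 42.5 CPM on chow and from 0.149 over 0.507 to 1.86 on HFD (log2FC -3.37, SE 0.411). Des, the muscle filament desmin, fell by 3.19 and the pericyte receptor Pdgfrb by 1.05 on the log2 scale. Of 13 endothelial markers 9 fell and 0 rose (median -0.62), and all 11 fibroblast and meningeal markers fell (median -1.06), Col3a1 and Col1a1, fibrillar collagens, by 1.32 and 1.00. Among choroid plexus and ependymal markers 5 of 7 fell, with Ttr, the thyroid hormone carrier made by choroid plexus, at medians of 108 and 46.7 CPM. Summed mural markers ran from 61.7 to 221 CPM on chow and from 32.1 to 48.4 on HFD, without overlap.

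Most oligodendrocyte markers were higher on HFD. Of 14 oligodendrocyte markers 12 rose and 0 fell (median 0.35), and of 10 markers of their precursors 7 rose and 0 fell (median 0.20). Mal, a myelin proteolipid, rose from 270, 397 and 724 CPM to 478, 586 and 823 (lowest, median, highest; log2FC 0.61, SE 0.0963, adjusted p = 3.5e-06 by edgeR), and 3 HFD libraries lay above the chow range. Pdgfra, the growth factor receptor of precursors, rose by 0.63. Mbp, myelin basic protein, had medians of 3342 and 3349 CPM and did not pass (log2FC -0.00, SE 0.0769). When each run of adjoining title numbers was 1 unit, leaving 5 chow and 6 HFD units, 10 oligodendrocyte and 4 precursor markers rose. With so few units calls can be lost for that alone. Without ZT6 there were 6 and 4. The precursor count was also 4 with the length offset described below, on FPKM values, and without any 1 of chow replicate 14 (ZT2), chow replicate 17 and HFD replicate 10 (both ZT6).

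Neuronal markers went both ways. Of 16 general neuron markers 2 rose and 7 fell, and of 14 cerebellar markers 6 rose and 7 fell. Among all genes 26.6% were called higher and 26.2% lower. Cbln3, a synaptic organiser made by granule cells, rose from a median of 391 to 555 CPM (log2FC 0.50, SE 0.0606), and Gabra6, a GABA receptor subunit of the same cells, from 811 to 1059 (log2FC 0.44). Pcp4, a calmodulin-binding protein of Purkinje cells, fell from a median of 27.3 to 14 CPM (log2FC -0.92, SE 0.102), the Purkinje cell gene Pcp2 from 7.42 to 4.22 (-0.81) and Pvalb, the calcium buffer parvalbumin, from 20.2 to 12.2 (-0.63). Tubb3, Camk2a and Nefl, a tubulin, a kinase and a neurofilament of neurons, fell by 0.64, 0.68 and 0.64, while the synaptic vesicle protein Syt1 rose by 0.42.

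Calls among blood cell genes differed with the time tested and with single libraries. In the test for a diet effect that varied with time, Hba1 had an adjusted p of 0.24 by edgeR and 0.044 by DESeq2. Of 6 erythrocyte genes 4 fell and 0 rose, but summed values overlapped widely, 122 to 6715 CPM on chow and 68.3 to 2134 on HFD. Without chow replicates 9 and 10 at ZT2, left out after the data were seen, 1 erythrocyte gene fell; without HFD replicate 18 at ZT6 as well, 6 did, and without any 1 of the 5 HFD libraries at ZT2 (replicates 7, 8, 9, 16 and 17) 1 fell. With runs of title numbers as the unit 0 erythrocyte genes were called. At ZT2 alone 6 erythrocyte genes fell, and at ZT6 and at ZT10 alone 0 were called. Of 7 neutrophil genes 1, the antimicrobial peptide gene Camp, fell (0.123, 0.514 and 26.1 CPM on chow, 0, 0.254 and 1.08 on HFD). Summed neutrophil genes stood at 302 CPM in chow replicate 14 at ZT2 against a median of 10.7 over the 32 libraries, and without that library, or without all of ZT2, 0 fell. At ZT2 alone 5 neutrophil genes fell (median -3.92), whereas at ZT10 alone 4 rose and 0 fell (median 1.03). Of 12 T and NK cell genes 1, the chemokine Ccl5, rose (log2FC 0.74, SE 0.23), and 7 rose without chow replicates 9 and 10 at ZT2. The T and NK cell list had 0 calls at ZT2 alone and 6 rises at ZT10 alone (median 0.74).

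**Figure D3:**
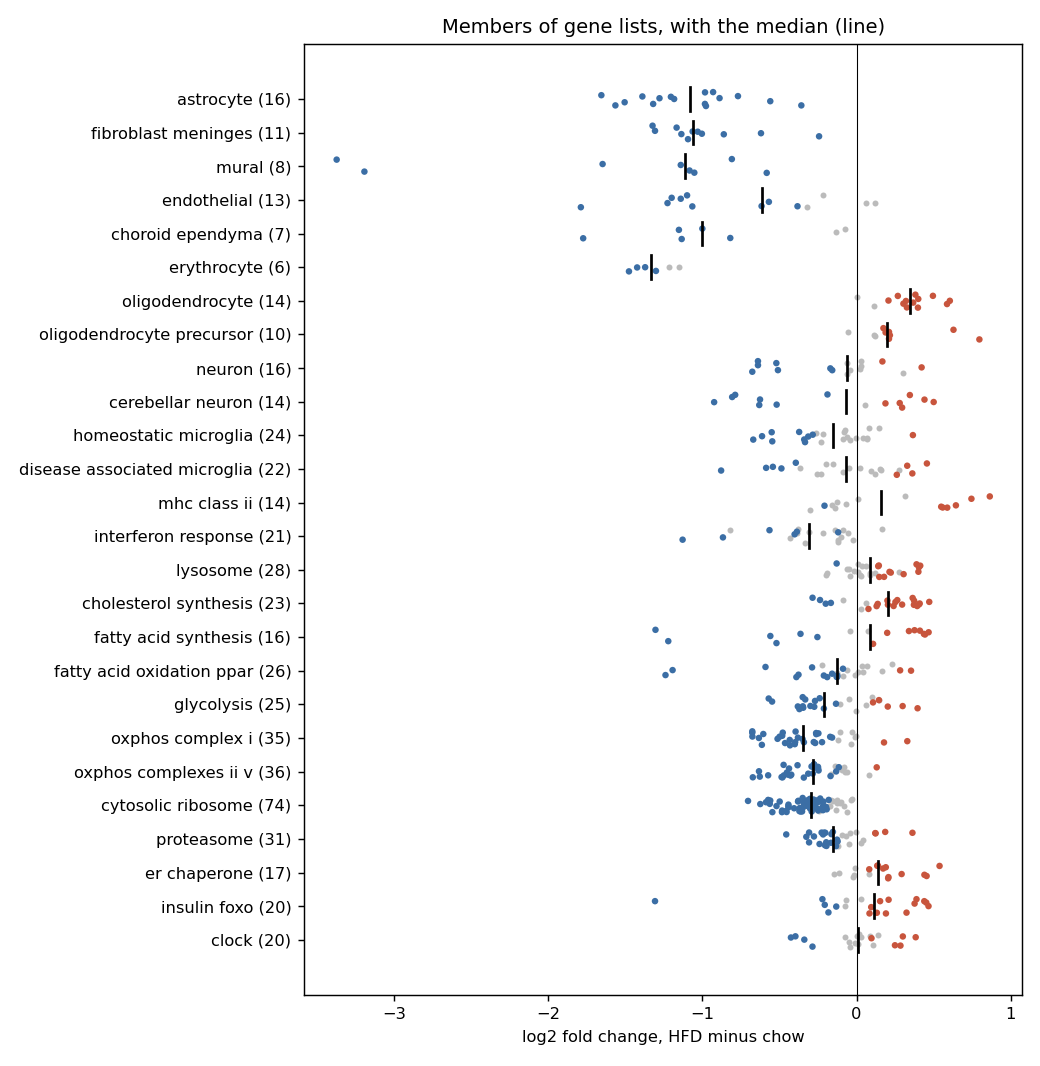
Log2 fold change of HFD minus chow for each tested member of 26 gene lists, the number of members in parentheses and the black line at their median. Red and blue points passed an adjusted p of 0.05 by edgeR and grey points did not; all astrocyte, mural and fibroblast points are blue, and 12 of 14 oligodendrocyte points are red.

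Of 24 homeostatic microglia genes 9 fell and 1 rose (median -0.15), against 26.2% and 26.6% of all genes. Summed they ran from 2561 over 2829 to 4581 CPM on chow and from 1924 over 2620 to 3069 on HFD. Cst3, cystatin C, made up a large part of these sums. It ran from 741 over 902 to 1626 CPM on chow and from 462 over 726 to 919 on HFD (log2FC -0.55, SE 0.113, adjusted p = 0.00013 by edgeR). Aif1, the calcium-binding protein known as Iba1, fell by 0.61, and Tmem119, a microglial surface protein, by 0.34. Sparc, a matrix glycoprotein that astrocytes and endothelium also make, fell by 0.67. The purinergic receptor P2ry12 and the fractalkine receptor Cx3cr1 did not pass, with log2FC of 0.07 (SE 0.114) and 0.06 (SE 0.105).

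The counts for this list differed with the time and with the 2 chow ZT2 libraries rich in blood and microglial genes. At ZT2 alone 10 homeostatic genes fell and 1 rose (median -0.62), at ZT6 alone 2 fell and 4 rose (-0.05), and at ZT10 alone 3 fell and 3 rose (0.05). Without those 2 libraries 9 fell and 5 rose, P2ry12 and Cx3cr1 then rising by 0.21 each (adjusted p = 0.023 and 0.012 by edgeR), and without all of ZT2 4 fell and 5 rose. Cst3 had mean levels of 1202 and 611 CPM on chow and HFD at ZT2, 1028 and 749 at ZT6 and 894 and 757 at ZT10. With scores of astrocyte, oligodendrocyte, neuron and endothelial markers in the model, 1 homeostatic gene fell and 0 rose. All 16 astrocyte markers fell on HFD, so these scores carry part of the diet difference. What a call lost in that fit means cannot be told.

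Genes of the disease-associated state, which microglia take on near plaques and damaged myelin, went both ways. Of 22, 4 were higher and 6 lower, against 26.6% and 26.2% of all genes. Ctsb, the protease cathepsin B, rose from a median of 1087 to 1311 CPM (log2FC 0.26, SE 0.0508), Gpnmb, a lysosomal glycoprotein, from 12.2 to 16.5 (0.46, SE 0.0915) and Cd9, a tetraspanin, from 116 to 155 (0.36). Apoe, the lipid carrier made by astrocytes as well as by microglia, ran from 504 over 607 to 1064 CPM on chow and from 244 over 352 to 503 on HFD, without overlap (log2FC -0.88, SE 0.104). Its receptor Trem2 fell from a median of 17.5 to 13.3 CPM (log2FC -0.49, SE 0.111). Lpl and Cst7, further genes of that state, did not pass (log2FC -0.09 and 0.28). Without ZT2 8 rose and 4 fell, and without the 2 chow libraries 7 rose and 5 fell.

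Of 14 genes of major histocompatibility complex (MHC) class II 6 rose and 1 fell, against 26.6% and 26.2% of all genes. RT1-Ba ran from 11.9 over 19.6 to 54 CPM on chow and from 21 over 36.6 to 80.5 on HFD (log2FC 0.86, SE 0.196, adjusted p = 0.0004 by edgeR). RT1-Da, RT1-Db1 and RT1-Bb, further chains, rose by 0.75, 0.64 and 0.59, and Cd74, the invariant chain that escorts them, by 0.56. RT1-Ba differed by 0.12 at ZT2, 1.14 at ZT6 and 1.22 at ZT10. Its chow values at ZT2 were 54 and 40.9 CPM in replicates 9 and 10 and 11.9 to 13.6 in the rest. Its HFD values at ZT2 ran from 21 to 36.7 CPM. Without chow replicates 9 and 10 at ZT2, 6 class II genes rose and 2 fell. With runs of title numbers as the unit, 5 on chow and 6 on HFD, 0 class II genes rose. RT1-Ba then had an adjusted p of 0.07 by edgeR. Without ZT6, or without ZT10, 1 class II gene rose.

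Calls in the other immune lists were mostly falls, in shares of members near or below the 26.2% of all genes called lower. Of 21 interferon response genes 6 fell and 0 rose, with Ifi27 going from a median of 5.52 to 3.4 CPM and Ifitm3, a membrane protein that restricts viruses, by -1.13 (SE 0.205). Of 20 NF-kB and inflammation genes 3 fell, namely Nfkbie, Nfkbia and Nfkb2, subunits and inhibitors of the pathway itself, by 0.46, 0.35 and 0.41. Of 17 complement and phagocytosis genes 4 fell, among them the C1q chains C1qb, C1qc and C1qa by 0.49, 0.44 and 0.39. Of 15 class I genes 3 fell and 1 rose, Erap1, which trims peptides, by 0.39. Without ZT2 the complement list had 3 rises and 2 falls and the interferon list 1 and 3.

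Of 28 lysosomal genes 11 rose, 1 fell and 16 did not pass (median 0.09). Among all genes 26.6% were called higher and 26.2% lower. Npc1, which moves cholesterol out of lysosomes, went from 130, 169 and 221 CPM to 169, 223 and 288 (lowest, median, highest; log2FC 0.39, SE 0.0658). Scarb2, a lysosomal membrane receptor, rose by 0.40 and the calcium channel Mcoln1 by 0.22. Without ZT6 6 rose, without ZT2 16 did, and with the 4 marker scores in the model 4 rose.

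Of 23 genes of cholesterol synthesis 16 rose and 4 fell, against 26.6% and 26.2% of all genes. Sc5d, a sterol desaturase late in the pathway, ran from 120 over 151 to 174 CPM on chow and from 171 over 187 to 228 on HFD (log2FC 0.37, SE 0.0482, adjusted p = 1.1e-07 by edgeR). Of its HFD libraries 14 lay above the chow range. Msmo1, a sterol oxidase, rose by 0.41 and Sqle, squalene epoxidase, by 0.36. Insig1 rose from a median of 74.4 to 99.2 CPM (log2FC 0.39, SE 0.0565). The 4 that fell, Fdps, Pmvk, Mvd and Mvk, act early in the pathway, between mevalonate and farnesyl diphosphate, and fell by 0.20, 0.29, 0.24 and 0.17. With an offset for transcript length Mvd alone still fell and 14 genes rose, and with the 4 marker scores in the model 5 rose and 1 fell.

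Cholesterol export and fatty acid synthesis were mixed. Abcg1, an exporter under LXR control, ran from 236 over 299 to 325 CPM on chow and from 353 over 396 to 433 on HFD, without overlap (log2FC 0.42, SE 0.0354). Abca1 rose by 0.34, whereas the LXR gene Nr1h2 fell by 0.30 and Abca7 by 0.23. With Lpcat3 and Apoe, of 11 genes 3 rose and 3 fell, near the 26.6% and 26.2% of all genes. Of 16 genes of fatty acid synthesis 8 rose and 6 fell. Acaca, the cytosolic acetyl-CoA carboxylase, rose from a median of 59.6 to 75.5 CPM (log2FC 0.38, SE 0.0435), Elovl5, an elongase, by 0.44 and Scd2, a desaturase of brain, by 0.41. Its mitochondrial counterpart Acacb fell from a median of 7.04 to 2.65 CPM (log2FC -1.30, SE 0.153), the carbohydrate sensor Mlxipl by 0.52 and the desaturase Fads1 by 0.36.

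Fatty acid oxidation and the targets of PPAR receptors fell more often than they rose, 13 of 26 against 2. Angptl4, a lipase inhibitor, fell from 0.794, 1.77 and 3.04 CPM to 0.124, 0.738 and 1.29 (lowest, median, highest; log2FC -1.24, SE 0.22), and 8 HFD libraries lay below the chow range. The receptor gene Ppara fell by 0.59 and the dehydrogenase Acadvl by 0.19, while Txnip, a glucose-responsive gene, rose by 0.35. With runs as the unit 6 fell, and with the marker scores 1 fell.

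Genes of glycolysis and of the respiratory chain fell more often than they rose. Of 25 glycolysis genes 14 fell and 5 rose, Ldhb, a lactate dehydrogenase, going from a median of 93 to 64.8 CPM (log2FC -0.55, SE 0.0746) and the aldolases Aldoa and Aldoc falling by 0.33 and 0.57. Slc16a1, a lactate transporter, rose by 0.40. Of 35 complex I genes 27 fell and 2 rose (median -0.35), with Ndufb7 going from a median of 11.1 to 7.25 CPM (log2FC -0.68, SE 0.0922); Ndufs1, the largest subunit, rose by 0.33. Of 36 genes of complexes II to V 28 fell and 1 rose (median -0.28). With the 4 marker scores in the model 0 glycolysis genes, 2 complex I genes and 0 genes of complexes II to V fell.

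Of 74 cytosolic ribosomal protein genes 59 fell and 0 rose (median -0.29), and of 31 proteasome genes 19 fell and 4 rose. Rpl36 went from 8.73, 11.6 and 16.3 CPM to 4.72, 7.12 and 11 (lowest, median, highest; log2FC -0.70, SE 0.112), and 14 HFD libraries lay below the chow range. Psmd13, a lid subunit of the proteasome, fell by 0.31 and Psmd1, a base subunit, rose by 0.36. Transcript lengths recovered from the ratio of count to FPKM were short in these lists, with medians of 286 bases for ribosomal, 375 for complex I and 335 for complex II to V genes. With an offset that removes each library's trend on transcript length, 9 ribosomal genes fell and 7 rose, 13 complex I genes fell and 3 rose, and 10 genes of complexes II to V fell and 2 rose. Of the proteasome genes 9 then fell and 6 rose, and 3 fell and 1 rose with the 4 marker scores in the model. Without any 1 of chow replicates 11 and 16 and HFD replicates 12 and 15, 2 proteasome genes rose in place of 4.

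Across all genes the diet difference followed transcript length. The median log2FC was -0.22 in the shortest of 10 equal bins of genes (median of 607 bases) and 0.15 in the longest (6954 bases), rising from each bin to the next. In the shortest bin 4.89% of genes were called higher and 47.5% lower, and in the longest 55.4% and 14%. With the length offset the medians of the bins lay between -0.022 and 0.0029, and 6899 of 14114 genes with a length were called, 3328 higher and 3571 lower. The 16 astrocyte genes have a median length of 2588 bases, and all 16 fell with the offset in place. The part of RNA quality or library preparation in the trend was not tested.

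**Figure D4:**
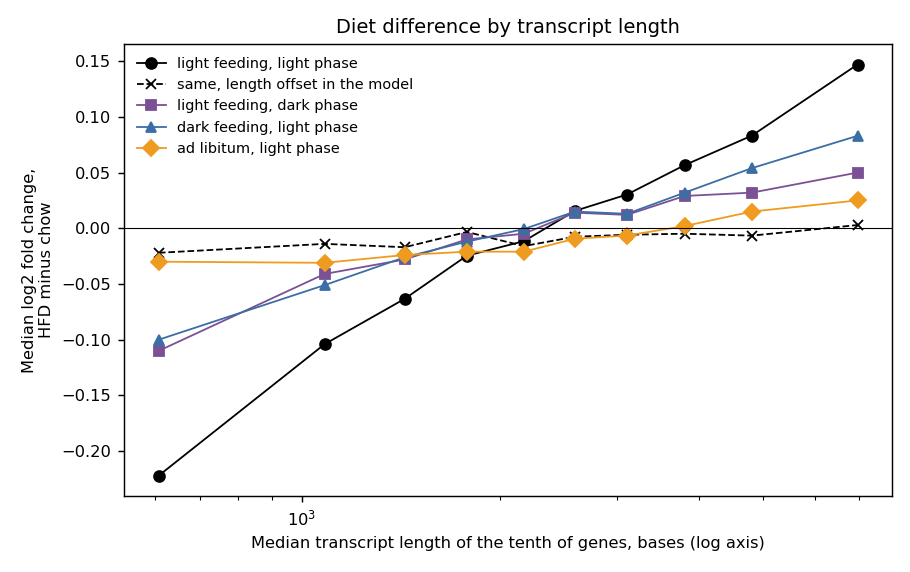
Median log2 fold change of HFD minus chow (vertical axis) in 10 bins of genes by transcript length (horizontal log axis, bases), for 4 diet comparisons and for light feeding in the light phase with a length offset. Light feeding rises from -0.22 to 0.15 in the light phase and from -0.11 to 0.05 in the dark phase. Dark feeding rises from -0.1 to 0.083 in the light phase, and ad libitum feeding stays between -0.031 and 0.025. The offset, which is fitted to remove the trend, flattens it.

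Of 17 chaperones of the endoplasmic reticulum (ER) 11 rose and 0 fell, against 7 and 1 on FPKM values. Atf6, a sensor of unfolded protein that becomes a transcription factor, ran from 72.2 over 90 to 105 CPM on chow and from 110 over 129 to 153 on HFD, without overlap (log2FC 0.54, SE 0.0479, adjusted p = 1.5e-10 by edgeR). Canx, the lectin chaperone calnexin, rose from a median of 496 to 665 CPM (log2FC 0.44), the co-chaperone Dnajb9 from 18.7 to 27.6 (0.45) and Herpud1, of ER-associated degradation, from 61.2 to 69.5 (0.21). Hspa5, the principal ER chaperone, had medians of 293 and 310 CPM and did not pass (log2FC 0.08, SE 0.0641). Without ZT6 4 genes rose, and with runs as the unit 5 did. Cytosolic heat shock genes were divided, 3 of 15 higher and 7 lower, with Hspa4l rising by 0.40 and the small heat shock protein Hspb1 falling by 2.32.

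Promoters of the lists that rose were read from RefSeq on build GRCr8, from 250 bases before to 50 after the start, and 11118 of the 14230 genes matched. Of 10 motifs searched on both strands, first in 7 lists and then in all 40, CCAAT was picked out after the counts were seen, and no test is given; the CArG pattern had been widened after a first look. It was found in 37.2% of all promoters, in 14 of 17 of cholesterol synthesis, 11 of 12 of MHC class II and 13 of 13 of ER chaperones, but in 14 of 55 of ribosomal proteins and 5 of 13 of astrocyte markers. It was also in 10 of 16 homeostatic microglia, 14 of 27 proteasome, 4 of 5 erythrocyte and 9 of 13 heat shock promoters, lists with more falls than rises, and in 3 of 10 oligodendrocyte and 5 of 17 insulin and FOXO promoters, lists with more rises. Among genes called higher and lower it was in 37.7% and 36.5%. The other motifs were TCACNCCAC (0 of 17 cholesterol promoters, 1.13% of all), CACGTG (2 of 17, 9.2%), GGGCGG (15 of 17, 61.1%), TGACGTCA (0, 3.17%), TGACGCAA (0, 0.89%), GAAANNGAAA (0, 2.91%), GGTCA (8 of 17, 36.8%), AGGTCA, which contains it (2 of 17, 11.6%), and the CArG box (0, 1.22%). The 150 bases before the start are shown for a sterol gene, a pair of class II genes and a pair of ER genes that rose and hold CCAAT or its complement ATTGG, in capitals, in that stretch. They are among the risers with the smallest p that do, so holding it is no finding:
Msmo1, chr16:29746963-29747112, plus strand: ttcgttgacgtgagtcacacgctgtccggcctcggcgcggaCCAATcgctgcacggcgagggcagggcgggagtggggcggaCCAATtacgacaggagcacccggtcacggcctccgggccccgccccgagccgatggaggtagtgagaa
RT1-Ba, chr20:4576907-4577056, plus strand: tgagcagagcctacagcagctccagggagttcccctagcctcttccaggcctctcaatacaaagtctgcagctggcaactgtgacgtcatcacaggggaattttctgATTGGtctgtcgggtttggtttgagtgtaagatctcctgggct
RT1-Da, chr20:4515265-4515414, plus strand: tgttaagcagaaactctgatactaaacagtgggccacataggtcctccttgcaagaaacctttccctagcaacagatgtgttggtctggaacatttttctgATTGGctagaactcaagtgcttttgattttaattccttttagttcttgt
Dnajb9, chr6:67002052-67002201, minus strand: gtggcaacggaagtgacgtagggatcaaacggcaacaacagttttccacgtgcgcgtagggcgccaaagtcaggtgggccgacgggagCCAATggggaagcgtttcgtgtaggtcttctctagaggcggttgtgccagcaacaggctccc
Herpud1, chr19:10614708-10614857, minus strand: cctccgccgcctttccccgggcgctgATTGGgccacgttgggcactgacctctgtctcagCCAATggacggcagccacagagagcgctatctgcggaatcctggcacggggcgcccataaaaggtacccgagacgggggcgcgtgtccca
Counted from the start, the motif begins at -109 and -68 in Msmo1, -43 in RT1-Ba, -49 in RT1-Da, -62 in Dnajb9 and -124 and -90 in Herpud1.

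Of 20 insulin and FOXO signalling genes, long ones with a median of 4858 bases, 12 rose and 5 fell (median 0.11). With the length offset 8 rose and 7 fell and the median was -0.03, and on FPKM values 7 rose and 6 fell. Insr, the insulin receptor, ran from 34.4 over 44.2 to 51.2 CPM on chow and from 50.4 over 56.1 to 66.2 on HFD, 14 HFD libraries above the chow range (log2FC 0.38, SE 0.0458). The adaptor Irs2, the receptor Igf1r and the transcription factor Foxo3 rose by 0.39, 0.32 and 0.47, and Akt2 and Akt1, kinases of the pathway, fell by 0.21 and 0.13. Igfbp2, a binding protein for insulin-like growth factors that also stands in the fibroblast list, fell by 1.31. With the marker scores 2 rose and 0 fell.

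Of 20 clock genes 5 rose and 4 fell, against 26.6% and 26.2% of all genes. Of the positive arm Clock rose (medians of 142 and 170 CPM, log2FC 0.29, SE 0.0406), while Arntl, its partner Bmal1, did not pass (-0.01, SE 0.0668) and Npas2 fell by 0.40. Of the negative arm Per2 fell by 0.29 and Cry2 rose by 0.10, and Per1, Per3, Cry1 and Ciart did not pass (log2FC -0.05, 0.11, 0.14 and 0.01). Among nuclear receptors that drive or repress Arntl, Nr1d2 and Rora rose by 0.25 and 0.38, Rorb fell by 0.43, and Nr1d1 did not pass (0.03). The output factor Tef rose from a median of 179 to 213 CPM (log2FC 0.30, SE 0.0383) and Dbp fell from 45.9 to 34 (-0.34, SE 0.0574), whereas Hlf, Nfil3, Bhlhe40 and Bhlhe41 did not pass (0.01, -0.07, 0.02 and 0.09).

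Hormone and stress lists were divided, to be read against 26.6% of all genes called higher and 26.2% lower. Of 17 glucocorticoid targets and receptors 5 rose and 5 fell: the receptor genes Nr3c1 and Nr3c2 rose by 0.26 and 0.27 and Klf9 by 0.20, and Fkbp5, a sensitive target, fell by 0.16. Without ZT6 1 rose, and without chow replicate 14 at ZT2 3 fell. Of 18 NRF2 targets 8 fell and 2 rose, Sod1, a superoxide dismutase, falling from a median of 25.6 to 16.3 CPM (log2FC -0.62, SE 0.0765) and Hmox1, heme oxygenase, by 0.58. Of 15 ATF4 targets 5 fell and 1 rose, of 21 immediate early genes 6 fell and 1 rose, and of 17 splicing factors 8 rose and 4 fell (3 and 5 on FPKM values), Srsf4 falling without overlap (medians of 119 and 88 CPM, log2FC -0.47). The cold-inducible genes Cirbp and Rbm3 did not pass (log2FC -0.10 and 0.12).

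The diet difference was then taken at each time. Alone, ZT2 gave 2485 calls, ZT6 4985 and ZT10 3049. The test for a diet effect that varied over the 3 times called 0 genes by edgeR (0%), with 1506 at an unadjusted p under 0.05 and a lowest adjusted p of 0.0634, and 25 by DESeq2. Among symbols with a mean of at least 5 CPM, the gene with the lowest p was RT1-DMb, a chaperone of peptide loading, at -0.82, 0.10 and 0.24 at ZT2, ZT6 and ZT10 (adjusted p = 0.24 by edgeR and 0.044 by DESeq2). Slc2a3, the neuronal glucose transporter, followed Hba1 with -0.15, -1.13 and 1.07, its chow means being 12.3, 15.7 and 5.76 CPM and its HFD means 11, 7.23 and 12.1.

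The same diet comparison was made in other libraries. Title numbers of the HFD libraries added here all lay outside 70 to 113, the range of the HFD libraries compared above. Differences between schedules or phases thus cannot be told apart from handling that followed the titles. In the dark phase of light feeding, when food was absent (34 libraries at ZT14, ZT18 and ZT22), 917 genes (6.44%) were called. Of them 883 were among the 7515 in the same direction, 11.7% of the larger list and 96.3% of the smaller. A test of the difference between phases called 1867 genes (13.1%), 1238 with a more positive and 629 with a more negative log2FC in the light phase. On FPKM values the balance was the reverse, 745 more positive and 1258 more negative. Cd47, the surface signal that restrains phagocytes, had log2FC of 0.51 (SE 0.0381) in the light and 0.17 in the dark phase (adjusted p of the difference 2.3e-05 by edgeR), and in the light phase its chow libraries ran from 328 to 442 CPM and its HFD libraries from 499 to 645. Col6a2, a collagen chain, had -0.98 and -0.42 (0.00064). The others of the 4 in each direction were Tmem33, Abhd13 and Bmpr2, with larger rises in the light phase, and Palm, Mark3 and Fip1l1, with larger falls.

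Astrocyte markers fell in the dark phase as well, 11 of 16 with a median of -0.55, and 10 of 16 differed between the phases. Fibroblast and mural markers had medians of -0.565 and -0.555. Oligodendrocyte markers had 0 calls in the dark phase (median 0.07), and 3 of 14 differed between phases. Of the 23 cholesterol genes 3 rose in the dark phase and 4 differed between phases. Of 14 class II genes 4 rose there, RT1-Ba by 0.61 (adjusted p of the difference 0.61 by edgeR).

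Under ad libitum feeding at the same times (33 libraries) 2 genes (0.0141%) were called. The test of the difference between light and ad libitum feeding called 3491 genes (24.5%), 1978 with a more positive and 1513 with a more negative log2FC under light feeding, against 1332 and 2066 on FPKM values. Astrocyte markers had a median log2FC of 0.09 under ad libitum feeding and 0 calls, and 15 of 16 differed between the schedules; so did 8 of 8 mural and 9 of 11 fibroblast markers. Of 35 complex I genes 22 had a more negative and 1 a more positive log2FC under light feeding, of 23 cholesterol genes 10 a more positive and 1 a more negative one, and of 20 clock genes 6 and 1. Basp1, a membrane protein of growing axons, had -1.22 (SE 0.12) under light and -0.02 under ad libitum feeding, and Prodh1, proline dehydrogenase, -0.89 and -0.00. Samd8, an enzyme of sphingolipid synthesis, had 0.55 and 0.04, and Plekhm3 had 0.41 and -0.03. Tmem127 and Fnip2, which act at lysosomes and in nutrient sensing, had 0.36 and -0.04, and 0.37 and 0.00. Mtg2 and Zwint completed the 8, at -0.38 and 0.05, and -0.33 and 0.05.

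Dark feeding at the same times (34 libraries) came closer, with 3310 genes (23.3%) called. Of them 2872 were among the 7515 in the same direction, 38.2% of the larger list and 86.8% of the smaller, and 4 in the opposite one. The median log2FC under dark feeding was 0.12 over the genes called higher under light feeding and -0.14 over those called lower. The test of the difference called 1526 genes (10.7%), 1002 more positive and 524 more negative under light feeding (619 and 782 on FPKM values), and 58 genes without ZT6 and 127 without ZT10. Astrocyte markers fell in 15 of 16 cases (median -0.65), of which 6 also differed from light feeding, and 8 of 8 mural markers fell (median -0.78), 1 of them differing. Class II genes rose in 6 of 14 cases and 0 differed. Fzd1, a Wnt receptor, had log2FC of 0.55 under light and 0.10 under dark feeding, Adora1, the adenosine A1 receptor, 0.48 and 0.04, and Dnajc6, a co-chaperone of clathrin uncoating, 0.47 and 0.11. Trip10, Col11a2, Gripap1 and Cc2d1a had -0.58 and -0.06, -0.92 and -0.26, -0.42 and -0.09, and -0.39 and -0.05.

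**Figure D5:**
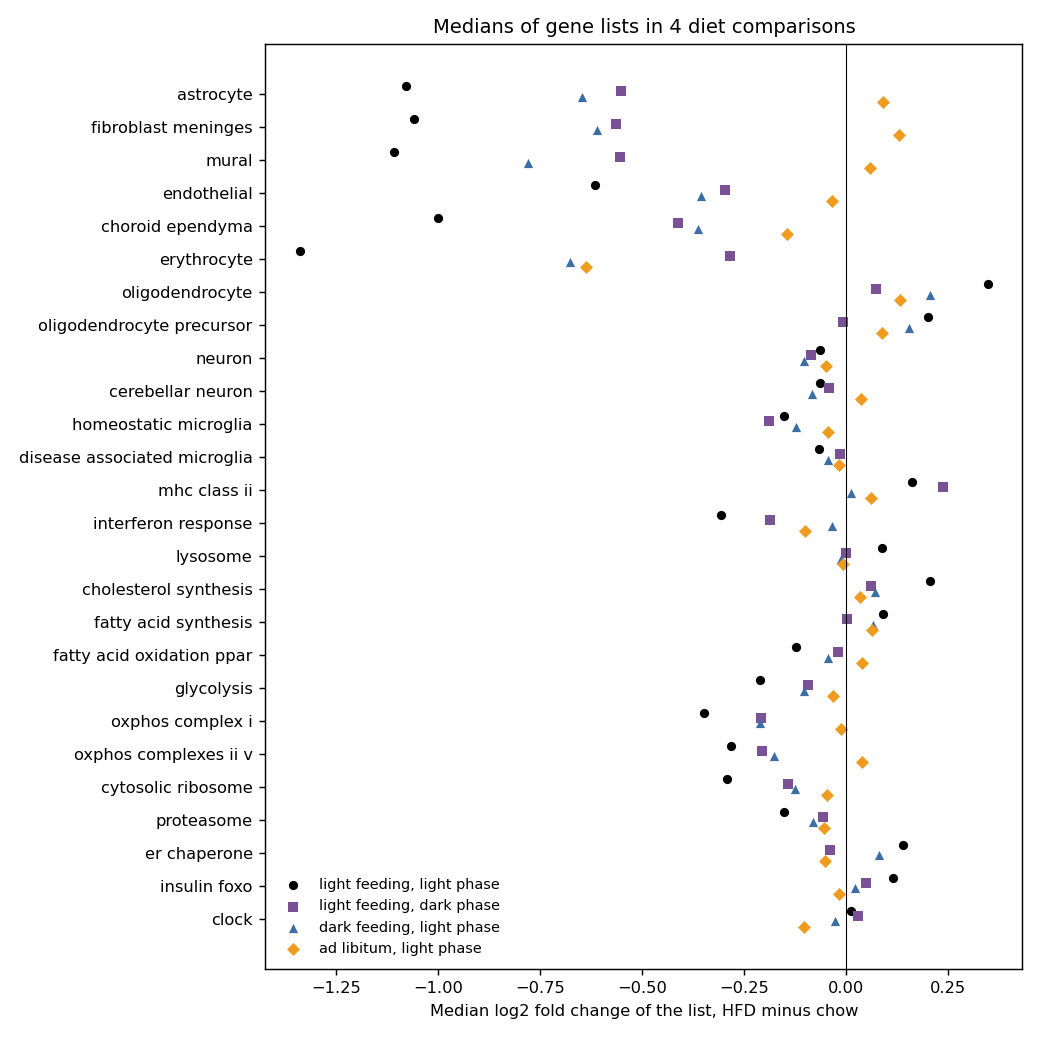
Median log2 fold change of HFD minus chow over the tested members of 26 gene lists in 4 comparisons that share no library. Astrocyte medians are -1.08 for light feeding in the light phase, -0.55 in the dark phase, -0.65 for dark feeding and 0.09 for ad libitum feeding.

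The lists were also counted with scores of astrocyte, oligodendrocyte, neuron and endothelial markers in the model, which cannot speak to those 4 lists themselves. The astrocyte score itself differed by diet, so what a call lost in that fit means cannot be told. That fit called 2099 genes (1120 rises, 979 falls), and 1793 of these were among the 7515 with the same sign. In that fit 5 class II genes, 4 ER chaperones and 5 cholesterol genes rose and 5 of 8 mural markers fell, while ribosomal proteins had 3 rises and 0 falls. Col6a2, Cd47, Abcg1 and Atf6 passed in it with log2FC of -0.69, 0.43, 0.27 and 0.40, and Gli1 did not (-0.70). The part of cell makeup in the diet difference was not tested.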

How the data were processed

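Per the labels' protocols, RNA was extracted on spin columns, enriched for messenger RNA and sequenced as DNA nanoballs from strand-specific libraries. Per the submitters' processing notes the genome was Rnor_6.0, and no source used here names the aligner or counter. The authors deposited expected counts, not normalised (8.03% of entries not whole), which were rounded here although the design had assumed raw counts, and FPKM values, normalised by length and library size.

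Counts scaled by TMM were tested with edgeR 4.0.16 in R 4.3.3 (quasi-likelihood, time as a factor, adjusted p under 0.05, mean CPM of at least 1). CPM values are on the scaled library totals. Alternatives used DESeq2 1.42.0 and limma 3.58.1 on log2(FPKM + 0.1). Transcript length came from the ratio of count to FPKM. The tests were also run on simulated counts in which few genes changed and libraries were independent. That setting differs from these data, so it does not check the error rate here. Chi-square over degrees of freedom was at least 2.25 in all 496 pairs of libraries, and none was merged.

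Named genes were the 12 largest changes in each direction among called genes averaging 5 CPM or more, with a symbol and the same sign at all 3 times; up to 4 members of each list per direction with the smallest p, or 2 where none passed; 4 genes per direction for each interaction; and clock genes. Results for some genes are not reported here. Further list members named for contrast (Aqp4, Slc1a2, Mbp, P2ry12, Cx3cr1, Tmem119, Lpl, Cst7, Cd74, Msmo1, Hspa5, Lpcat3), RT1-DMb, Slc2a3 and LOC103694902 were chosen after their values were seen. Members and lists were chosen with earlier results of these data known. Of the genes tested, 20 carry a spreadsheet date in place of a symbol. Genes with close copies, such as globin and RT1 genes, are uncertain to the extent that reads were divided between copies.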

Additional observations from a re-analysis of the deposited data

Results flagged for a closer look

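Within diet and time, 228 sets of 5 or 6 libraries were examined for a library far from the rest, over the 24 genes with the largest changes and the marker sums, and 7 sets held one, from 5 distinct libraries, where chance gives about 1 in 20 sets. At chow ZT10 the same library had Cldn5 at 23.4 CPM (others 10.5 to 13.2), summed astrocyte markers at 1835 CPM (others 1418 to 1490) and Myh9l1 at 0 (others 11.9 to 89.3). Another chow ZT10 library had Gpr22 at 44 CPM (others 48.9 to 50.4). One HFD ZT10 library had RT1-Ba at 67 CPM (others 34.3 to 39.8). At ZT6, summed border macrophage genes reached 88 CPM in a chow library (others 65.5 to 69.9) and summed neutrophil genes 26.2 CPM in an HFD library (others 9.94 to 11.8).

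By the interaction test of edgeR, which cannot set apart handling that followed the titles, the diet effect differed between light and ad libitum feeding in 3491 genes. The differences in log2FC, light minus ad libitum, were 0.44 for Plekhm3, 0.49 for Samd8, 0.39 for Tmem127, 0.37 for Fnip2, -0.44 for Mtg2, -0.39 for Zwint, -1.21 for Basp1 and -0.86 for Prodh1. It differed between light and dark feeding in 1526 genes, by 0.44 for Fzd1, 0.36 for Dnajc6, 0.43 for Adora1, 0.36 for Cd47, -0.51 for Trip10, -0.65 for Col11a2, -0.32 for Gripap1 and -0.33 for Cc2d1a. Between the light and dark phases of light feeding it differed in 1867 genes, by 0.63 for Tmem33, 0.44 for Abhd13, 0.38 for Bmpr2, 0.34 for Cd47, -0.28 for Palm, -0.22 for Mark3, -0.28 for Fip1l1 and -0.55 for Col6a2.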

How the results depend on the processing

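Leaving out each of the 32 libraries in turn, the diet effect gave 7188 to 7623 calls against 7515. DESeq2, RLE scaling, other filters, FPKM values, title number in the model and all 200 libraries in 1 fit gave 7411 to 7615. Of these calls, 6343 on FPKM values and 7123 to 7438 in the other settings were among the 7515 in the same direction. Without the 2 chow libraries high in haemoglobin, chosen after seeing the data, there were 7616, and 7491 without 3 such libraries. Without ZT2, ZT6 or ZT10 there were 6729, 5290 and 6509, with runs of title numbers as the unit 5643, with a length offset 6899 and with marker scores 2099. The test for diet by time gave 0 calls by edgeR and 25 by DESeq2, with 1506 at an unadjusted p under 0.05 by edgeR. Diet by phase gave 392, 770 and 1043 calls without ZT6, ZT14 and ZT22 against 1867. Light against ad libitum feeding gave 1237 and 1962 without ZT2 and ZT6 against 3491, and light against dark feeding 58 and 127 without ZT6 and ZT10 against 1526. The cause was not tested.

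Of 230 genes followed, 24 changed direction with marker scores, at log2FC of Sparc 0.20, Cst3 0.048, Csf1 -0.068, Fth1 0.29, Axl 0.17, Aspa -0.017, Camk2a 0.072, Abcb1a 0.043, Flt1 0.24, Mx2 0.076, Mfge8 0.19, Fads1 0.075, Thrsp 0.23, Ehhadh -0.15, Abca1 -0.072, Pfkfb2 -0.00091, Ldhb 0.048, Aldoc 0.26, Rorb 0.26, Errfi1 -0.033, Mt2A 0.33, Slc7a11 0.35, Atf5 0.11, Akt1 0.0094. Among these 24, Aspa, Camk2a, Abcb1a and Flt1 belong to the lists that make up the scores, so the fit cannot speak to them. Srsf9 changed direction with the length offset (0.0065) and Errfi1 on FPKM values (-0.10). No paired analysis was possible because the labels give the libraries no shared replicate numbers. At 1 CPM a gene rests on about 5 to 11 counts per library.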
